A study of Mus musculus with 4 samples.

Results

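The MAF transcription factors were followed as 6 genes of the deposited table, taken by name from 55487: Mafa, Maf and Nrl, which encode large MAF proteins, and Maff, Mafg and Mafk, which encode the small MAF proteins. The genes were picked by name with earlier knockout against control results of these data known, so their own values in that comparison are given as a description: no p-value of theirs is printed, and nothing is read from how many of them passed a threshold. Of the 6 genes, 5 passed the filter on low values (a normalized read count of at least 10 in at least 2 libraries), as did 16589 genes in all, and Nrl did not.

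RNA was measured in freshly isolated pancreatic islets of C57BL/6 mice aged 30 weeks, in 2 knockout libraries (Ggcx flox/flox with the Pdx1-Cre transgene) and 2 control libraries (Ggcx flox/flox without Cre). Every library pooled islets from 2 mice, so n = 2 pools per genotype. The product of Ggcx is the enzyme of vitamin K-dependent carboxylation of glutamate residues, and Pdx1-Cre recombines floxed alleles in cells of the pancreatic lineage, not in beta cells alone. Both genotypes carry the floxed alleles and no library carries Cre with intact Ggcx, so the transgene and the loss of Ggcx cannot be told apart. Control libraries are named by their column numbers in the deposited table (2 and 3), which differ from the numbering of the labels.

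The libraries held between 47624630 and 51756221 reads. Ggcx itself had normalized read counts of 234.2 and 643.4 in knockout islets, against 3971 and 3981 in control islets. The insulin genes Ins1 and Ins2 together made up 19.0% and 19.7% of all normalized reads in knockout libraries and 19.1% and 18.1% in control libraries, which fits the label of islet tissue. In bulk RNA of this kind, fewer cells of a type and less RNA per cell cannot be told apart.

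MAF proteins are basic leucine zipper factors that bind DNA as dimers at MAF recognition elements. Large MAFs carry an activation domain: MAFA activates the insulin genes and other genes of mature beta cells, MAF (c-MAF) acts in lens, T cells, macrophages and islet alpha cells, and NRL sets rod photoreceptor fate in the retina. Small MAFs lack such a domain and work as partners, activating transcription in dimers with NRF1 and NRF2 (encoded by Nfe2l1 and Nfe2l2) and repressing it in dimers with each other or with BACH1 and BACH2.

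The coding sequences below are shown because the basic region, which contacts DNA, is nearly the same in the 3 small MAFs and bears on whether reads could be shared between them. They are a 39-base stretch of Maff and its best ungapped matches in Mafg and Mafk, read from GENCODE M21 transcripts on GRCm38, with capitals at the 33 positions that are the same in all 3 genes.
Maff: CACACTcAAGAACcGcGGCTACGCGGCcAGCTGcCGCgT
Mafg: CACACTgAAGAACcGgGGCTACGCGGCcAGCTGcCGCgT
Mafk: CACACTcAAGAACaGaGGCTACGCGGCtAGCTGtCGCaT

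The Maff stretch lies at chr15:79357555-79357593 on the plus strand. It shared 37 of its bases with Mafg and 34 with Mafk. Over whole annotated transcripts, the longest run of identical bases ranged from 13 to 26 across the 15 pairs of the 6 members. Maff and Mafg shared at most 23 bases, as did Mafg and Mafk. The read length of the libraries is not given in the sources used here, so whether any read could fit both genes of a pair was not tested.

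Of the 6 genes, 4 had a promoter entry in the RefSeq table (GRCm38.p6), 3 of them small MAFs, which are printed because all 3 had lower mean counts in knockout islets. The other was Nrl, whose mean count was also lower in knockout islets but rests on few reads. Its window is not shown and held no match to the motifs below. Each window covers the 250 bases before the start of transcription, and for Maff, with 3 listed starts, the second is shown because it alone of the 3 holds a cAMP response element. Of the Maff windows not shown, the first holds 1 antioxidant core and the third no match. Capitals mark matches to any of the motifs searched on both strands: the cAMP response element TGACGTCA, the AP-1 site TGANTCA, the MAF core site TGCTGA, and the core of the antioxidant response element TGACNNNGC. A full MAF recognition element holds a MAF core site on each strand and, across its middle, an AP-1 site or a cAMP response element, so these motifs can overlap.
Maff chr15:79347270-79347519 plus strand: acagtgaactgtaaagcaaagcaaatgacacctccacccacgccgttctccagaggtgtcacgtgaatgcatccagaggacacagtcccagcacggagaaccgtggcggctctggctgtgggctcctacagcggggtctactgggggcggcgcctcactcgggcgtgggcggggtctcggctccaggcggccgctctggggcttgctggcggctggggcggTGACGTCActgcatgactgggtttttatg
Mafg chr11:120633548-120633797 minus strand: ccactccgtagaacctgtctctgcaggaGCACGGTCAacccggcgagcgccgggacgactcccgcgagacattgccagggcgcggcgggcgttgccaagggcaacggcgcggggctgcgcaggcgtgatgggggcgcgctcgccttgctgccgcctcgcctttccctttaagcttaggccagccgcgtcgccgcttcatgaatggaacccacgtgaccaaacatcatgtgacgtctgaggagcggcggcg
Mafk chr5:139791286-139791535 plus strand: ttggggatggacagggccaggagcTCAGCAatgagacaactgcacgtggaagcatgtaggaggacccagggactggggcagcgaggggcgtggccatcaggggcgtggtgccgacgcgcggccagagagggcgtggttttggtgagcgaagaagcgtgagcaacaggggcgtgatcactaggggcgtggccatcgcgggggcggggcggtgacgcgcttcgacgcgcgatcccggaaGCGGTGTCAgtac

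The Maff window held 1 cAMP response element, a match found in 1.55% of 32851 promoter windows of the same length. That share is for windows not picked for a match, whereas this window was picked from 3 for it. The Mafg window held 1 antioxidant core and the Mafk window 1 antioxidant core and 1 MAF core site, matches found in 10.2% (antioxidant core) and 16.1% (MAF core site) of the windows. An AP-1 site, which none of the 3 windows held, was found in 6.75% of the windows. These matches describe letters in a window and not sites in use. The Ins1 element that follows is not from such a window: its core begins 21 bases after a start listed for that gene. For the large MAFs the sequence of interest is a target element: in Ins1, the insulin C1 element that MAFA binds reads tttggaaacTGCAGCTTCAGCccctctggc at chr19:52264309-52264338 (plus strand, GRCm38.p6, capitals on the core).

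Corrected for exon length, Mafa was by far the most abundant of the 6 transcripts, the small MAFs formed a middle group, and Maf and Nrl were at the low end. Mafa (ENSMUSG00000047591; GRCm38 chromosome 15, 75745490 to 75748228, minus strand, 1 exon) stood at 6050.1 and 6659 normalized reads per kb in knockout libraries, against 5914 and 8123 in control libraries. It ranked 173rd of 55141 genes by this level, with a mean over the 4 libraries 6.13 times that of Maff.

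Among the small MAFs the order was Maff, Mafk, Mafg. Maff (ENSMUSG00000042622; chromosome 15, 79346621 to 79359076, plus strand) had 936 and 1054 normalized reads per kb in knockout libraries and 1108 and 1268 in control libraries. Mafk (ENSMUSG00000018143; chromosome 5, 139791513 to 139802653, plus strand) had 669 and 732 in knockout libraries and 708 and 780.2 in control libraries. Mafg (ENSMUSG00000051510; chromosome 11, 120625117 to 120633600, minus strand) had 471 and 522 in knockout libraries and 542 and 563 in control libraries. The ranges of neighbours in this order did not overlap over the 4 libraries. With the longest annotated transcript as the length, the order was the same.

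**Figure D1:**
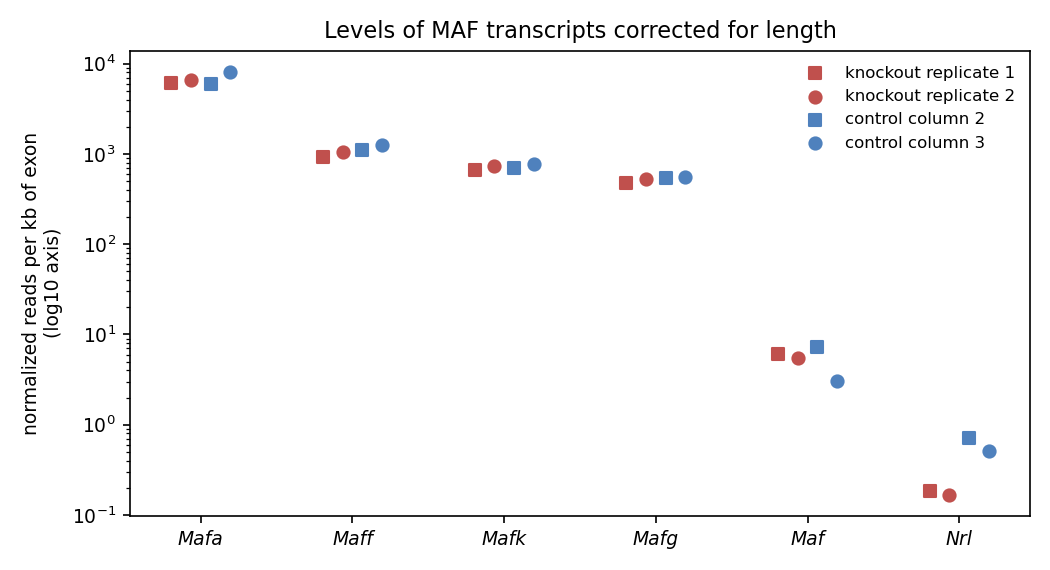
Normalized reads per kb of annotated exon (log10 axis) for the 6 MAF genes, with 1 point per library, knockout libraries in red and control libraries in blue. Mafa lies highest in every library, at 5914 to 8123, the small MAFs lie between 471 and 1268, and Maf and Nrl lie under 10.

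Maf (ENSMUSG00000055435; chromosome 8, 115682942 to 115707794, minus strand) reached 6.06 and 5.47 normalized reads per kb in knockout libraries, against 7.32 and 3.07 in control libraries. The Mafg level was 95.7 times that of Maf over the 4 libraries. Nrl (ENSMUSG00000040632; chromosome 14, 55518978 to 55524981, minus strand) had 0.183 and 0.169 in knockout libraries and 0.718 and 0.514 in control libraries. The gene models overlap others in places: Mafg shares 124 exonic bases with Sirt7 on the same strand, Mafk 169 with Tmem184a and Maf 440 with Gm15655, both on the opposite strand. The strand setting of the counting is not given in the sources used here, so reads in these stretches cannot be assigned with certainty.

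Between the genotypes, the log2 fold changes of the 5 tested members ran from -0.26 for Maff to 0.27 for Maf. At a limma adjusted p under 0.05, 0.621% of all tested genes were called, and 0 of the 5 MAF genes that passed the filter. At an unadjusted p under 0.05 limma gave 2 of them, both lower in knockout islets, beside 14.1% of all tested genes (6.74% higher and 7.34% lower), and neither edgeR nor DESeq2 on the recovered reads called any (0) at an adjusted p under 0.05.

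Mafa had normalized read counts of 16571 and 18238 in knockout islets, against 16199 and 22248 in control islets. The knockout values lie between the control values, so the groups overlap. The mean was 17404 ± 1178 in knockout islets and 19223 ± 4277 in control islets (SD, n = 2 each). The log2 fold change, here and below of knockout over control and fitted on log2(value + 1), was -0.13 ± 0.12 (SE). Limma draws this SE toward the spread of other genes. The log2 gap of Mafa was 0.46 between control pools and 0.14 between knockout pools, which alone would give a larger SE. The sign depended on 1 library, since the log2 fold change was 0.10 when control column 3 was left out. It was -0.36 when control column 2 was left out, -0.06 when knockout replicate 1 was and -0.20 when knockout replicate 2 was.

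The Mafa counts of the 2 control pools lay farther apart than the means of the genotypes. Control column 3 was 37.3% above control column 2, while the knockout pools differed by 10.1%. Of the 6839 tested genes with a mean of at least 1000, 0.366% had a larger gap between the control pools on the log2 scale, and 11.5% had a larger gap between the knockout pools than Mafa. Insulin reads were not high in the same library: Ins1 and Ins2 together were at their lowest share of the 4 libraries in control column 3, where Mafa was highest.

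**Figure D2:**
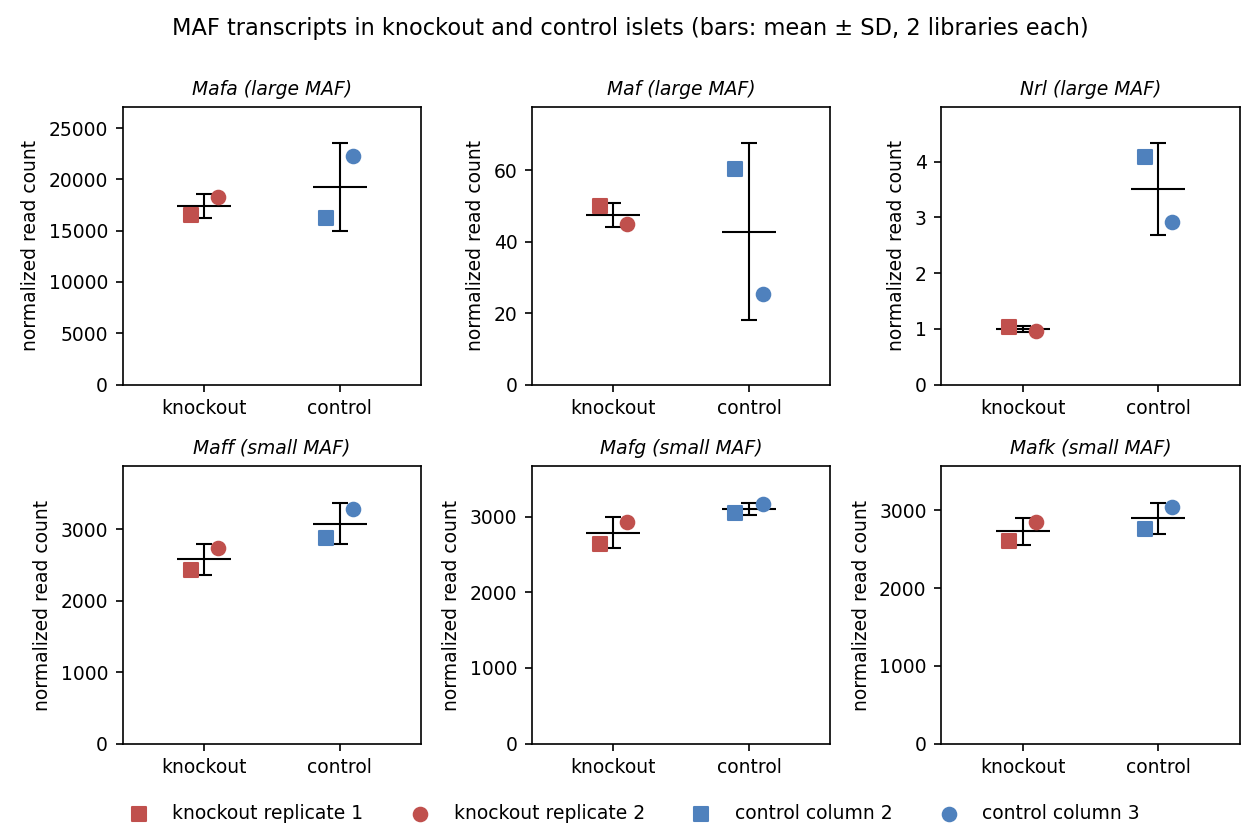
Normalized read counts of the 6 MAF genes in each library, knockout to the left of control, with linear axes from 0 and bars for the mean ± SD of 2 libraries. The control pools of Mafa (16199 and 22248) and Maf (60.3 and 25.3) lie far apart around the knockout pools, and the knockout points of Maff and Mafg lie below both control points.

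Maff, the small MAF that is induced by inflammatory and mitogenic signals, had the largest difference among the abundant members. Its normalized read counts were 2427 and 2734 in knockout islets, against 2874 and 3289 in control islets. Both knockout values lie below both control values. The mean was 2580.4 ± 217 in knockout islets and 3082 ± 293 in control islets (SD, n = 2 each), and the log2 fold change was -0.26 ± 0.08. With libraries left out it lay at -0.17 (knockout replicate 1), -0.34 (knockout replicate 2), -0.35 (control column 2) and -0.16 (control column 3). It stayed below 0 in all 15 alternatives run. Leaving out 1 library could not change its sign, because both knockout values lie below both control values. The filter, trend and robust settings do not change the fitted value.

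Mafg, a broadly expressed small MAF, had normalized read counts of 2644 and 2929 in knockout islets, against 3041 and 3160.3 in control islets. Both knockout values again lie below both control values, by a smaller margin. The mean was 2787 ± 202 in knockout islets and 3100.5 ± 84.5 in control islets (SD, n = 2 each), and the log2 fold change stood at -0.16 ± 0.06. The value was -0.08 without knockout replicate 1 and between -0.23 and -0.13 without each other library in turn.

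Mafk, which encodes the small subunit of the erythroid factor NF-E2, had normalized read counts of 2608 and 2854 in knockout islets, against 2762 and 3043 in control islets. Knockout replicate 2 lies above control column 2, so the groups overlap. The log2 fold change was -0.09 ± 0.07, and it was -0.02 when either control column 3 or knockout replicate 1 was left out, -0.16 when control column 2 was and -0.15 when knockout replicate 2 was.

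Of the 5 genes that passed the filter, Maff and Mafg (2) had knockout values entirely below the control values. Among all tested genes 23.0% did, 22.0% had knockout values entirely above, and 45.0% thus did not overlap, so with 2 libraries per genotype a gap of this kind is common. In each small MAF, knockout replicate 1 was the lowest library and control column 3 the highest. The normalized counts of Maff over those of Mafk within the same library, a ratio that library scaling does not touch, were 0.931 and 0.958 in knockout islets, against 1.04 and 1.08 in control islets. Maff made up 45.1% and 45.7% of the summed small MAF level per kb in knockout islets and 47.0% and 48.6% in control islets, while Mafk made up 32.2% and 31.7% in knockout islets and 30.0% and 29.9% in control islets. The level of Mafa per kb was 2.92 and 2.89 times that of the 3 small MAFs together in knockout islets, between the 2.51 and 3.11 of control islets.

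**Figure D3:**
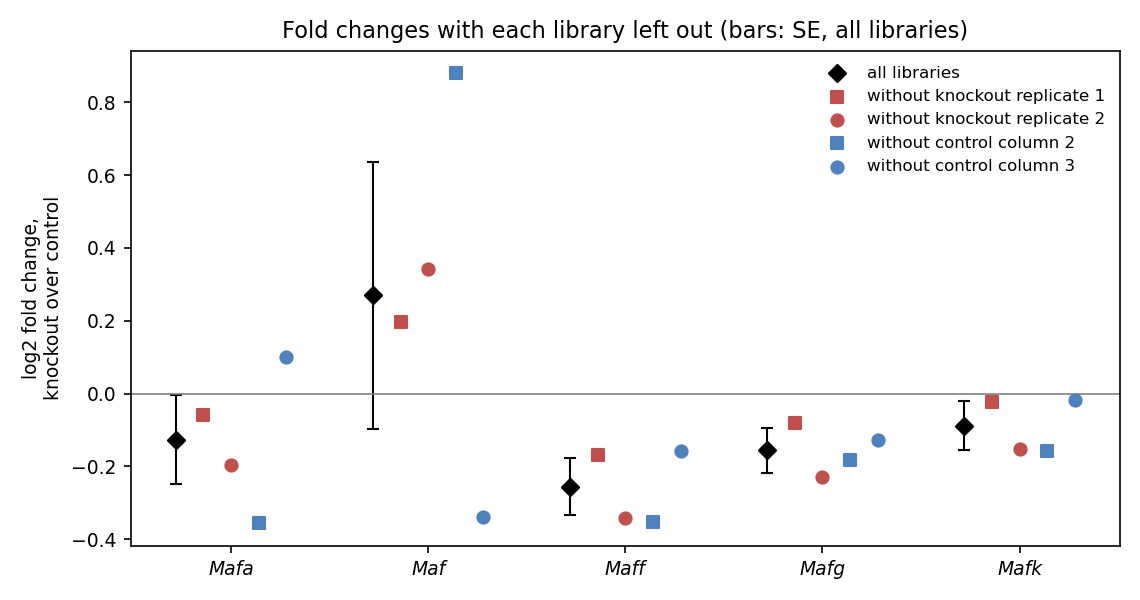
Log2 fold changes (knockout over control) of the 5 tested MAF genes with all libraries (black, bars show the SE) and with each library left out in turn. The 3 small MAFs stay below 0 in every fit, whereas Mafa runs from -0.36 to 0.10 and Maf from -0.34 to 0.88. For Maff and Mafg, whose knockout values all lie below the control values, leaving out 1 library could not change the sign.

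Maf had normalized read counts of 49.96 and 45.1 in knockout islets, against 60.3 and 25.3 in control islets. The control values lie on either side of the knockout values. They rest on 48 and 47 reads in the knockout libraries and on 59 and 26 in the control libraries. The exact 95% Poisson interval, which covers counting error only, was 44.9 to 76.1 reads for control column 2 and 17.0 to 38.1 for control column 3, so the control pools differed by more than counting error. The log2 fold change was 0.27 ± 0.37, with values of 0.88 when control column 2 was left out and -0.34 when control column 3 was. The pools of Maf alone would give a larger SE. Leaving out a knockout library gave 0.20 (replicate 1) and 0.34 (replicate 2).

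Maf is a gene of alpha cells and macrophages, whose marker lists were summed beside it. Macrophage markers summed to normalized counts of 5158 and 5207 in knockout islets, against 5355 and 4784 in control islets. None of their 9 tested genes of 10 passed the limma test in either direction (0 at an unadjusted p under 0.05, 0 with edgeR or DESeq2), and no marker was at 0 in all libraries. C1qa and C1qb, complement genes of tissue macrophages, had log2 fold changes of 0.01 ± 0.08 and 0.04 ± 0.08. Control column 3, where Maf was lowest, also had the lowest macrophage sum, and the part of these cells in the Maf values was not tested.

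Alpha-cell markers summed to 1671513 and 1388949 in knockout islets, against 1179166 and 1374503 in control islets. All 7 had log2 fold changes above 0, with a median of 0.36 beside 0.0002 for all tested genes, and 0 passed the limma test (4 were higher at an unadjusted p under 0.05, 0 with edgeR and 3 with DESeq2). Glucagon (Gcg) stood at 0.26 ± 0.14 and transthyretin (Ttr) at 0.24 ± 0.12. Between the knockout pools the higher alpha-cell sum went with the higher Maf count, and between the control pools with the lower one. The part of alpha cells in the Maf values was not tested.

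Nrl had normalized read counts of 1.04 and 0.959 in knockout islets, against 4.09 and 2.92 in control islets. These are 1 and 1 reads in knockout libraries, and 4 and 3 reads in control libraries. Over both libraries the exact 95% Poisson interval was 0.242 to 7.22 reads in knockout islets and 2.81 to 14.4 in control islets. Both knockout values lie below both control values, on too few reads for a reading of the difference. Of 8 rod photoreceptor genes, many of them targets of NRL in the retina, Crx, Nr2e3 and Rcvrn were at 0 in all libraries, 7 did not pass the filter, and the transducin gene Gnat1, the 1 that did, had a log2 fold change of -0.01 ± 0.29 and was not called by limma, edgeR or DESeq2 (0 at an unadjusted p under 0.05). The 8 genes summed to 41.6 and 51.8 normalized counts in knockout islets and 41.9 and 50.7 in control islets.

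The genes around the MAFs were then read in lists chosen by function. Over the 123 distinct genes tested in all lists, limma called 2 higher and 0 lower at an adjusted p under 0.05 (17 higher and 19 lower at an unadjusted p under 0.05; 2 higher and 0 lower with edgeR, 6 and 3 with DESeq2), beside 0.247% higher and 0.374% lower among all tested genes. The unadjusted threshold was passed by 6.74% of all tested genes in the higher direction and 7.34% in the lower. The 2 called genes were cell type markers, Rbp4 and Dcn.

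None of the tested partners of the small MAFs passed the limma test. In this list of 7, which holds the cap'n'collar and BACH factors and the NRF2 inhibitor Keap1, 5 were tested, 0 were called (1 lower at an unadjusted p under 0.05, 0 with edgeR and DESeq2), and the median log2 fold change was -0.07. Nfe2l1 encodes NRF1, which induces proteasome genes, and had normalized read counts of 17542 and 17155 in knockout islets, against 18552 and 19404 in control islets. Its log2 fold change was -0.13 ± 0.05 (limma adjusted p = 0.275). Bach1, a haem-regulated repressor, stood at 3519 and 3249.6 in knockout islets and 3640 and 3673 in control islets (-0.11 ± 0.06; limma adjusted p = 0.414). Both genes were lower in each knockout library than in each control library, without passing the test. Nfe2 and Nfe2l3, the other partners of this family, did not pass the filter, with at most 6.24 normalized counts in any library.

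Antioxidant genes, which NRF2 and small MAF dimers activate through antioxidant response elements, showed no call in either direction among 20 tested by limma. At an unadjusted p under 0.05, 2 were higher and 2 lower, with 0 called by edgeR and 1 lower by DESeq2, and the median log2 fold change was 0.03. The ferritin chains Ftl1 and Fth1, the most abundant of them, had log2 fold changes of 0.03 ± 0.05 and 0.05 ± 0.05 (limma adjusted p = 0.875 and 0.691). Ftl1 had 35793 and 38412 normalized counts in knockout islets and 36549 and 36211 in control islets, so its groups overlap.

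Of 18 beta-cell genes bound by MAFA or known to depend on it, 0 passed the limma test (0 higher and 3 lower at an unadjusted p under 0.05, 0 with edgeR and DESeq2), with 11 log2 fold changes below 0 and a median of -0.03. Ins2 had a log2 fold change of 0.04 ± 0.20 and Ins1, whose C1 element is printed above, 0.12 ± 0.16 (limma adjusted p = 0.963 and 0.801). Ins1 had 3039009 and 3151134 normalized counts in knockout islets, against 2938484 and 2771882 in control islets. The knockout values are both higher than both control values, by a fold change smaller than the limma error. That error borrows from other genes and is larger than the Ins1 pools alone would give. Without the trend Ins1 was not called either (limma adjusted p = 0.583).

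The regulators upstream of Mafa gave 0 calls among 9 tested of 10 (0 higher and 1 lower at an unadjusted p under 0.05, 0 with edgeR and DESeq2), with a median log2 fold change of -0.06. Nkx6-1 and Pax6, homeodomain factors of islet endocrine cells, had log2 fold changes of -0.09 ± 0.07 and -0.06 ± 0.05 (limma adjusted p = 0.627 and 0.670). Nkx6-1 had 29324 and 30928 normalized counts in knockout islets and 29964 and 34200 in control islets, and like Mafa it was highest in control column 3. Pdx1, Neurod1 and Nkx6-1 stand in this list and in that of the MAFA-dependent genes.

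Among 8 genes for coactivators and turnover of the MAFA protein, 0 were called by limma (1 lower at an unadjusted p under 0.05, 0 with edgeR and DESeq2), with a median of -0.07. Gsk3b, a kinase that phosphorylates MAFA and marks it for degradation, stood at -0.07 ± 0.05, and the acetyltransferase gene Kat2b at 0.01 ± 0.05 (limma adjusted p = 0.585 and 0.982). RNA counts say nothing of MAFA protein, which was not measured.

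AP-1 proteins can dimerize with some MAFs, and with other immediate early genes they form the next list. Like Maff, such genes can be induced by signals, but no induction was measured here. Among 14 tested genes, 0 passed the limma test (1 higher and 4 lower at an unadjusted p under 0.05, 0 with edgeR, 0 higher and 2 lower with DESeq2), with a median of -0.05 and a range from -0.83 to 0.19. Jun had a log2 fold change of 0.06 ± 0.08 and Fosb of -0.15 ± 0.08 (limma adjusted p = 0.791 and 0.496). Fosb had 137875 and 161546 normalized counts in knockout islets and 161608 and 168854 in control islets, in the same order of libraries as Maff, with knockout replicate 1 lowest and control column 3 highest.

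Of 7 lens crystallins, targets of MAF in the lens, 6 did not pass the filter and 2 of these, Cryba1 and Crygd, were at 0 in all libraries. Crybb3 alone was tested, with 47.9 and 40.3 normalized counts in knockout islets, 46.0 and 38.0 in control islets and a log2 fold change of 0.07 ± 0.24, and neither limma, edgeR nor DESeq2 called it (0 at an unadjusted p under 0.05).

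**Figure D4:**
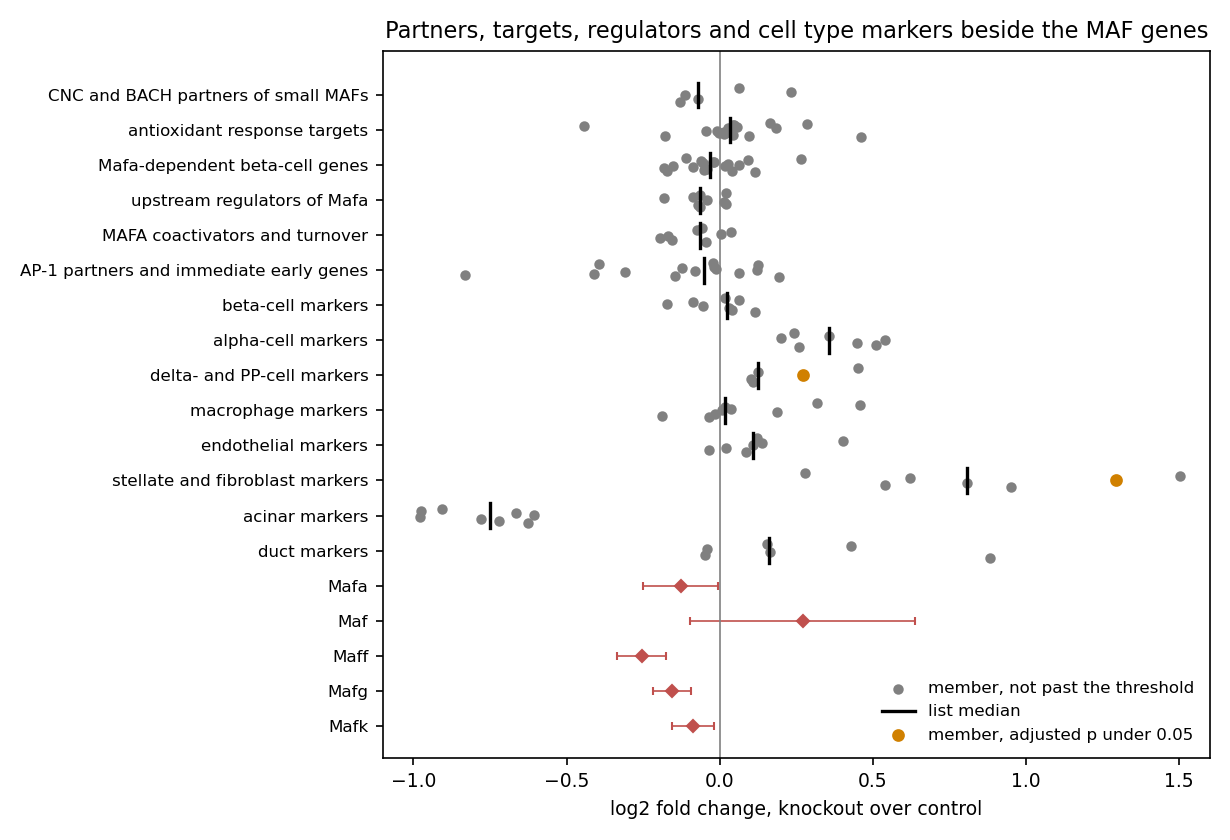
Log2 fold changes (knockout over control) of the tested genes in each list with at least 3 of them (grey points; orange where the limma adjusted p was under 0.05; black bars, list medians) above the 5 tested MAF genes (red, bars show the SE). The lists tied to MAF function centre between -0.07 and 0.03. Stellate and alpha-cell markers lie to the right with medians of 0.81 and 0.36, and acinar markers to the left with a median of -0.75.

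Acinar, stellate and alpha-cell marker lists had median log2 fold changes farther from 0 than that of any tested MAF gene (0.36 for the alpha-cell list). Acinar markers summed to 5425 and 9343 in knockout islets, against 11190.0 and 12677 in control islets, with 8 of 8 log2 fold changes below 0, a median of -0.75 and 0 past the limma test (8 lower at an unadjusted p under 0.05, 0 with edgeR and DESeq2). The lipase gene Pnlip stood at -0.98 ± 0.27 and the chymotrypsinogen gene Ctrb1 at -0.61 ± 0.16 (limma adjusted p = 0.147 and 0.123). Without knockout replicate 2 the values were -1.53 for Pnlip, which was then called, and -0.86 for Ctrb1, which was then called too. Pnlip was also called without knockout replicate 1, at -0.43, and Ctrb1 without control column 2, at -0.79. The order of the libraries in the acinar sum, with knockout replicate 1 lowest and control column 3 highest, is that of Maff and Mafg, and the part of exocrine cells in the small MAF values was not tested.

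Stellate and fibroblast markers summed to 3319 and 2443 in knockout islets, against 2048 and 1543 in control islets, and 7 of 7 had log2 fold changes above 0, with a median of 0.81. Of these, 1 was called by limma (6 higher at an unadjusted p under 0.05, 1 with edgeR and 2 with DESeq2). Dcn, which encodes the matrix proteoglycan decorin, rose to 408 and 296 normalized counts in knockout islets, against 175 and 114 in control islets (log2 fold change 1.29 ± 0.21, limma adjusted p = 0.0449). Its call ended without control column 3, at 0.99. Among delta- and PP-cell markers, Rbp4, a retinol-binding protein gene, rose to 6385 and 6328 normalized counts in knockout islets, against 5220.2 and 5312 in control islets (0.27 ± 0.05, limma adjusted p = 0.0475), and 4 of 5 did not pass (2 higher at an unadjusted p under 0.05, 1 with edgeR and 1 with DESeq2). This call ended when control column 3 (0.28), knockout replicate 1 (0.26) or knockout replicate 2 (0.28) was left out.

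Beta-cell markers, 7 of whose 8 genes also stand among the MAFA-dependent ones, had a median of 0.02 and 0 calls (1 lower at an unadjusted p under 0.05, 0 with edgeR and DESeq2). They summed to 10885453 and 11192992 in knockout islets and to 10852160 and 10342300 in control islets. The sum, made up mostly of Ins1, Ins2 and Iapp, was lowest in control column 3, the library with the most Mafa, as were those genes. Slc2a2, Nkx6-1 and Ucn3 were instead at their highest there (32334, 34200 and 28970.5), and G6pc2 and Slc30a8 were neither highest nor lowest. Endothelial markers had 0 of 7 called (1 higher at an unadjusted p under 0.05, 0 with edgeR and DESeq2) and a median of 0.11, with Plvap at 0.11 ± 0.10 and Kdr at 0.02 ± 0.06. Duct markers had 0 of 6 called (1 higher at an unadjusted p under 0.05, 0 with edgeR and DESeq2) and a median of 0.16, with Krt7 at -0.05 ± 0.05 and Spp1 at 0.43 ± 0.19. Spp1 was called without knockout replicate 2, at 0.74.

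For each tested MAF gene, the 2 genes with the most similar pattern over the 4 libraries were taken by the root-mean-square difference of log2(value + 1) after centring each gene, among 12252 candidates (12253 for Maf) with a mean of at least 50. Nearest to Mafa were Zbtb42, a zinc finger gene (0.016), and Zwilch, a kinetochore gene (0.022). Zbtb42 had 249 and 268 normalized counts in knockout islets and 236 and 328 in control islets, with the same high value in control column 3. Only 8 candidates lay within 0.05 of Mafa, against 95 for Maff, 509 for Mafg and 699 for Mafk. The difference is not scaled by a gene's spread, so genes that vary more over the libraries tend to have fewer candidates this near.

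Nearest to Maff were Rara, the retinoic acid receptor alpha gene (0.013), and Lhx1, a LIM homeobox gene (0.014). Rara had 860 and 952 normalized counts in knockout islets and 1002 and 1168 in control islets. Nearest to Mafg were S1pr1, a sphingosine-1-phosphate receptor gene (0.0025), and Rfx5 (0.0072), and nearest to Mafk were Prpf38a (0.0043) and Shb (0.0086). Maf had no candidate within 0.05 (0), and its nearest were Rtl10 (0.12) and Magee2 (0.14). A pattern over 4 libraries, which share their depth scaling, is a description only.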

How the data were processed

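Poly(A)-enriched RNA of 4 islet libraries was sequenced on Illumina instruments, per the labels' protocols. Tools listed without roles in the submitters' processing notes are STAR 2.5.1b, CASAVA 1.4, DESeq2 1.22.2 and featureCounts 1.6.0, with the build GRCm38. The authors deposited 1 signal value for every gene in each library, which the file name calls a count normalized relative to library size. Each column was whole multiples of 1 step (100% of values lay within 0.01 of a whole read), which gave back the reads. The deposited table further holds a log2 fold change with its error, a score (their ratio) and raw and adjusted p-values, not used here. No column of another sample was found (0).

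Names tied knockout columns to their samples, and control columns to the group only. The labels list replicates as separate samples, each of 2 mice. Chi-square over degrees of freedom within a pair was 9.85 for knockout and 10.1 for control libraries, so neither pair agreed within sampling noise.

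Genes with at least 10 in at least 2 libraries were tested with limma 3.58.1 (R 4.3.3) on log2(value + 1), with a mean-variance trend, two-sided, Benjamini-Hochberg adjusted at 0.05 over all tested genes. The pseudocount understates changes of low genes, and errors borrow spread across genes (6.85 prior beside 2 residual degrees of freedom). The printed SE of each tested MAF gene is smaller than its own pools alone would give. For Ins1 and Ins2 the printed SE is larger than their own pools would give. An exact permutation test of 2 against 2 could not reach that threshold and was not run. Count models on recovered reads, edgeR 4.0.16 (quasi-likelihood, TMM) and DESeq2 1.42.0, were alternatives. The steps were tested on simulated data. Levels were divided by the union of exons in GENCODE M21, which held 99.4% of the identifiers.

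The members and lists were chosen with earlier results of these data known. Named genes were the members, Ggcx, up to 4 called genes per list by p or else its 2 most abundant, and the 2 nearest patterns per member. Genes at 0 in all libraries, overlapping gene models and Nfe2 and Nfe2l3 were named after their values were seen, as were Pdx1 and Neurod1 for standing in both lists.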

Additional observations from a re-analysis of the deposited data

How the results depend on the processing

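The counts of called genes depended on the test. The 41 higher and 62 lower became 1 and 1 with no filter on low values, 19 and 32 with a filter at 50, 0 and 0 without the trend (1841 at an unadjusted p under 0.05), 85 and 124 with robust empirical Bayes, and 113 and 208 with DESeq2. Leaving out 1 library gave 58 to 207 higher and 49 to 241 lower, most without control column 2. Higher genes were 57 and lower genes 55 with a common upper quartile, which moved the median of all genes to 0.019. List genes called higher went to 0 with no filter, with a filter at 50 and without the trend, 1 with a common total and 6 with DESeq2, and ranged from 0 (without control column 3) to 8 (without knockout replicate 2) with 1 library left out. Those called lower went to 1 with robust empirical Bayes and 3 with DESeq2, and ranged from 0 to 11 (without knockout replicate 2). The causes were not tested.

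The members' log2 fold changes kept their sign under every pseudocount, filter, scaling and count model run, except that Maf was not among the genes fitted with the filter at 50. A filter does not change the fitted value of a gene that passes it, and a pseudocount hardly moves that of an abundant gene. For these settings the sign was thus bound to stay in the abundant members. With 1 library left out, they ranged from -0.36 to 0.10 for Mafa, -0.34 to 0.88 for Maf, -0.35 to -0.16 for Maff, -0.23 to -0.08 for Mafg and -0.16 to -0.02 for Mafk. Levels per kb with the longest transcript as length were 1446 for Maff (1091 with all exons), 909.5 for Mafk (722) and 598 for Mafg (524), because the length is shorter.

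Small changes of uncalled genes crossed 0. With 1 library left out, the log2 fold change ranged from -0.023 to 0.079 for Ftl1, -0.18 to 0.0073 for Nkx6-1, -0.040 to 0.051 for Kat2b, -0.023 to 0.15 for Jun, -0.25 to 0.22 for Gnat1, -0.065 to 0.20 for Crybb3, -0.10 to 0.12 for C1qa, -0.024 to 0.098 for C1qb, -0.030 to 0.25 for Plvap and -0.056 to 0.097 for Kdr. With a common total Kat2b was -0.0022. Gnat1 was 0.0032 with a common upper quartile, 0.0041 with edgeR and TMM and 0.0016 with edgeR and DESeq2 size factors. The calls of Rbp4 and Dcn also ended with no filter, with a filter at 50 and without the trend, that of Rbp4 with a common total and that of Dcn with robust empirical Bayes.

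No paired analysis was possible because the control columns are numbered 2 and 3, so the genotypes share only 1 replicate number. With 2 pools per genotype the spread between pools, more than depth, limits the precision. For Maf and Nrl low counts limit it too.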
